A study of Mus musculus with 4 samples.

Results

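The AP-1 subunits Fos, Fosb, Jun, Junb, Jund and Atf3 and the early response genes Egr1, Ier2, Dusp1 and Nr4a1 were followed through single-cell RNA-seq (scRNA-seq) of mouse bone marrow. These 10 genes were matched by symbol, and all 10 were found among the 31053 features of each of the 4 count matrices. They were chosen by measured values, since the levels of Fos, Jun and Egr1 in these same libraries had been seen to differ between the libraries numbered 1 and 2. Differences between library numbers are therefore given below as descriptions with no test, and the genotype comparison is the one that was tested. That test is not free of the choice. Genes chosen for a difference between libraries of the same genotype have a wide spread in it, which made a lack of calls more likely. The same choice made calls of opposite sign likely in fits that leave out a TLR9-/- library. Bone marrow mononuclear cells were flushed from the femur and tibia, taken from the interface of a Ficoll gradient and sequenced as 5′ gene expression libraries. The marrow came from 2 C57BL/6 mice with a disrupted Tlr9 gene in all tissues (TLR9-/-) and from 2 wildtype C57BL/6 mice (WT), with 1 library per mouse and no treatment named in the labels, and the study's methods name the strain as C57BL6/J. The protocol given for these libraries names no culture before the gradient, whereas marrow cells for the study's osteoclast assays were first kept overnight with M-CSF. TLR9 is an endosomal receptor for unmethylated CpG DNA, and the mutant line was bred apart from WT. The age and sex of the sequenced mice are not given in the sources used here. Each of the 2 experiments of the study held 1 mouse of each genotype, but no label says that the library numbers 1 and 2 stand for these experiments.

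AP-1 is a family of dimers of basic leucine zipper proteins. Fos proteins bind DNA only as partners of Jun proteins, whereas Jun proteins can also pair with each other or with Atf3. Most of these genes are transcribed within minutes of a stimulus, through kinases that act on serum response factor, its partners of the Elk family and Creb, and their mRNAs are short-lived. Egr1 is a zinc finger transcription factor and Nr4a1 an orphan nuclear receptor of the same fast class, Ier2 is a small nuclear protein, and Dusp1 is a phosphatase that switches off MAP kinases. In bone marrow, Fos is known as a factor without which osteoclasts do not form, Nr4a1 as a factor needed for nonclassical monocytes, and Jund as the Jun protein that is less dependent on a stimulus. Because the transcripts respond so quickly, they are also known to change while tissue is handled and cells are isolated.

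The regulatory sequence before the start of these genes is shown for the 4 members in which a searched motif was found. RefSeq promoter windows on GRCm38.p6, the build that mm10 names, matched 8 of the 10 members by symbol, and Egr1 and Ier2 were not matched. The 250 bases before each start were searched on both strands for the cAMP response element TGACGTCA, the AP-1 site TGANTCA, the Egr site GCGNGGGCG and the CArG box of serum response factor, and on the gene's strand for the TATA box TATAAA. Capitals mark the matched letters, each sequence runs 5′ to 3′ on the strand of its gene and ends at the last base before the start.
Fos, chr12:85473640-85473889, plus strand, TATA box in capitals: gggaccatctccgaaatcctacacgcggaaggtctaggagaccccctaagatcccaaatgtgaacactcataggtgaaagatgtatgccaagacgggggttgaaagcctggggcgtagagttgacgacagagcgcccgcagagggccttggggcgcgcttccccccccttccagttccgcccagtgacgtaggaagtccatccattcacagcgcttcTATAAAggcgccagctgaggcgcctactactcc
Dusp1, chr17:26508473-26508722, minus strand, cAMP response element in capitals: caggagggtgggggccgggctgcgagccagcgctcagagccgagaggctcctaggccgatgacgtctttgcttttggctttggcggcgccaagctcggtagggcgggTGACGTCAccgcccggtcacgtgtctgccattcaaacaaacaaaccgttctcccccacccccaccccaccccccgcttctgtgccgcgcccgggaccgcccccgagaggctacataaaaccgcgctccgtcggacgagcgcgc
Fosb, chr7:19310046-19310295, minus strand, Egr site in capitals: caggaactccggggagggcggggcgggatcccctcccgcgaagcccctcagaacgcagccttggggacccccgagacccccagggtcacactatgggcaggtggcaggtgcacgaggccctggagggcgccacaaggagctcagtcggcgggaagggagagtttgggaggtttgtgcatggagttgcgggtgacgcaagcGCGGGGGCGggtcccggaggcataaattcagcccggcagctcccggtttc
Nr4a1, chr15:101266596-101266845, plus strand, Egr site read on the other strand in capitals: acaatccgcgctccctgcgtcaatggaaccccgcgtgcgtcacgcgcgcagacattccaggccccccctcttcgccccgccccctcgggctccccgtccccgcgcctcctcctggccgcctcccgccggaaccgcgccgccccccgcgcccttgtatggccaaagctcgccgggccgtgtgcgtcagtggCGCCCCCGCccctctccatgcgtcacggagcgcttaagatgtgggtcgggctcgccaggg
The TATA box of Fos began 33 bases before the start, and the cAMP response element of Dusp1 began 143 bases before it. The Egr sites of Fosb and Nr4a1 began 50 and 60 bases before the start. Of all 32817 promoter windows of this length, 7.60% held the TATA box, 1.55% the full cAMP response element, 4.70% the Egr site, 6.75% the AP-1 site and 1.47% the CArG box. None of the 8 windows held the full AP-1 site or CArG box, which says only that these letters are not within these 250 bases. The starts are those of RefSeq and can differ from the gene annotation used for transcript lengths. The Jund window ends at chr8:70697738, well before the annotated gene start at 70698949. Those of Atf3, Dusp1 and Nr4a1 lie inside the annotated span of their gene.

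After filtering, 39167 cells remained, 19699 from TLR9-/- and 19468 from WT mice. The libraries held 31210188 to 63958243 unique molecular identifiers (UMIs, each marking 1 captured molecule), with a median of 1759 to 3618 per cell. TLR9-/- 2 was the deepest library and WT 1 the shallowest. For Tlr9 itself, 41 UMIs were counted in TLR9-/- 1 and 48 in TLR9-/- 2, against 120 in WT 1 and 97 in WT 2. Cells were clustered without the members and 4 of the lists read below. These were other AP-1 subunits and partners, other early response genes, cytokine and activation genes that AP-1 can induce, and heat-shock genes. From marker genes 38 of 42 clusters could be named, so that each name below means cells resembling that type. The hematopoietic stem and progenitor cells (HSPCs) were 1 cluster of 1131 cells led by Cd34, Egfl7 and Hlf, with 11 of 12 markers detected. The 4 unnamed clusters held 1121 cells (2.86%), and 1 of them was nearly confined to the libraries numbered 1, with 168, 0, 124 and 1 cells in TLR9-/- 1, TLR9-/- 2, WT 1 and WT 2. Any 2 libraries shared 118 to 203 cell barcodes, 1.29% to 1.83% of the smaller library. Levels are given as CPM, the UMIs of a gene summed over the cells of a class in a library and divided by the library's TMM-scaled total for that class. A fold change is log2 of TLR9-/- over WT from edgeR's quasi-likelihood test of 2 libraries against 2, and its p-value is adjusted over all genes tested in the class. With sums over a class, fewer cells expressing a gene and less RNA per cell cannot be told apart. Mice within a genotype were separate animals, so the spread between libraries holds both biological and technical differences.

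Fos, the partner that Jun proteins need for the classical AP-1 dimer, was highest in mature neutrophils and classical monocytes and lowest in erythroid cells. In mature neutrophils its level was 1944 and 399 CPM in TLR9-/- 1 and 2 and 970.2 and 611 CPM in WT 1 and 2. In classical monocytes it was 718 and 157 CPM in TLR9-/- 1 and 2 and 363 and 157 CPM in WT 1 and 2, and in erythroid cells 44.5 and 3.93 CPM in TLR9-/- 1 and 2 and 21.6 and 4.76 CPM in WT 1 and 2. TLR9-/- 1 had the highest level in all 14 classes tested, and WT 1 came next in all of them. Between these ends, the order by mean level was plasma cells, basophils, HSPCs, conventional dendritic cells (cDC), granulocyte and monocyte precursors, NK cells, plasmacytoid dendritic cells (pDC), T cells, immature neutrophils, immature and mature B cells and B-cell precursors. Neighbours in this order did not differ beyond the spread of their libraries, as their ranges overlapped at every step. Granulocyte and monocyte precursors, the cells from which both lineages arise, had 261 and 35.3 CPM in TLR9-/- 1 and 2 and 106 and 29.9 CPM in WT 1 and 2. In basophils the values were 425, 34.8, 146 and 76.3 CPM in TLR9-/- 1, TLR9-/- 2, WT 1 and WT 2. The highest basophil value was that of TLR9-/- 1 and the lowest that of TLR9-/- 2, so that the WT libraries lay between the TLR9-/- libraries.

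**Figure D1:**
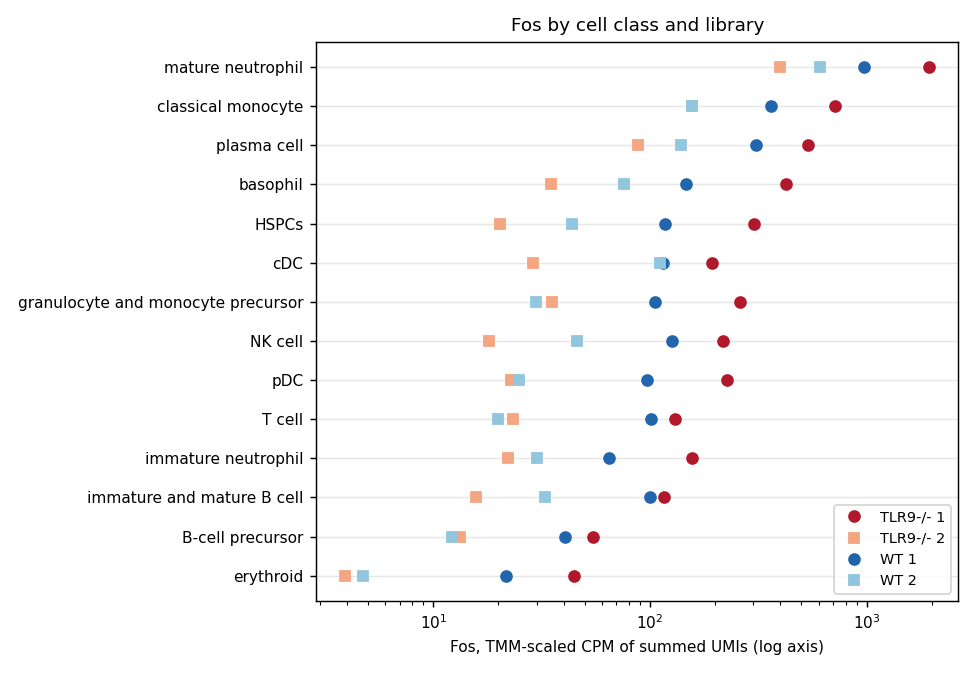
Level of Fos in each of 14 cell classes (vertical axis, ordered by mean) in TMM-scaled CPM on a log axis, with 1 point per library. In every class both libraries numbered 1 (circles) lie to the right of both numbered 2 (squares), and the TLR9-/- libraries (red) overlap with the WT libraries.

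In HSPCs, the self-renewing and early progenitor pool, the AP-1 subunits were high in TLR9-/- 1 and low in TLR9-/- 2, with the WT libraries between them or level with the higher one. Fos had 898, 62, 100 and 51 UMIs in TLR9-/- 1, TLR9-/- 2, WT 1 and WT 2, which came to 303, 20.4, 117 and 43.6 CPM. Jun, the main partner of Fos, was at 128 and 27.3 CPM in TLR9-/- 1 and 2 and 62.0 and 53.8 CPM in WT 1 and 2. Junb, a Jun protein with weaker activation, was at 162 and 46.4 CPM in TLR9-/- 1 and 2 and 124 and 64.1 CPM in WT 1 and 2. For all of these the groups overlapped, as TLR9-/- 1 was the highest library and TLR9-/- 2 the lowest. Jund differed in one respect, as its WT 1 level was slightly above that of TLR9-/- 1, with 110.5 and 28.0 CPM in TLR9-/- 1 and 2 and 115 and 64.1 CPM in WT 1 and 2. Fosb, a Fos paralog with few transcripts here, had 72, 16, 12 and 12 UMIs, or 24.3, 5.26, 14.0 and 10.2 CPM. Atf3, a repressor of the Atf family that pairs with Jun, had 1 UMI in TLR9-/- 1 and 0 in the other 3 libraries and was not tested.

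The early response genes outside AP-1 were also highest in TLR9-/- 1 and lowest in TLR9-/- 2 in HSPCs. Egr1 was at 54.0 and 6.58 CPM in TLR9-/- 1 and 2 and 45.7 and 22.2 CPM in WT 1 and 2. Ier2 was at 290.2 and 84.5 CPM in TLR9-/- 1 and 2 and 207 and 95.7 CPM in WT 1 and 2. Both had each library numbered 1 above each library numbered 2. Dusp1, the MAP kinase phosphatase, was at 55.7 and 9.54 CPM in TLR9-/- 1 and 2 and 17.6 and 18.8 CPM in WT 1 and 2, so that the 2 WT libraries were nearly level. Nr4a1 had 116, 4, 13 and 3 UMIs, and its 2 lowest libraries were both numbered 2.

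**Figure D2:**
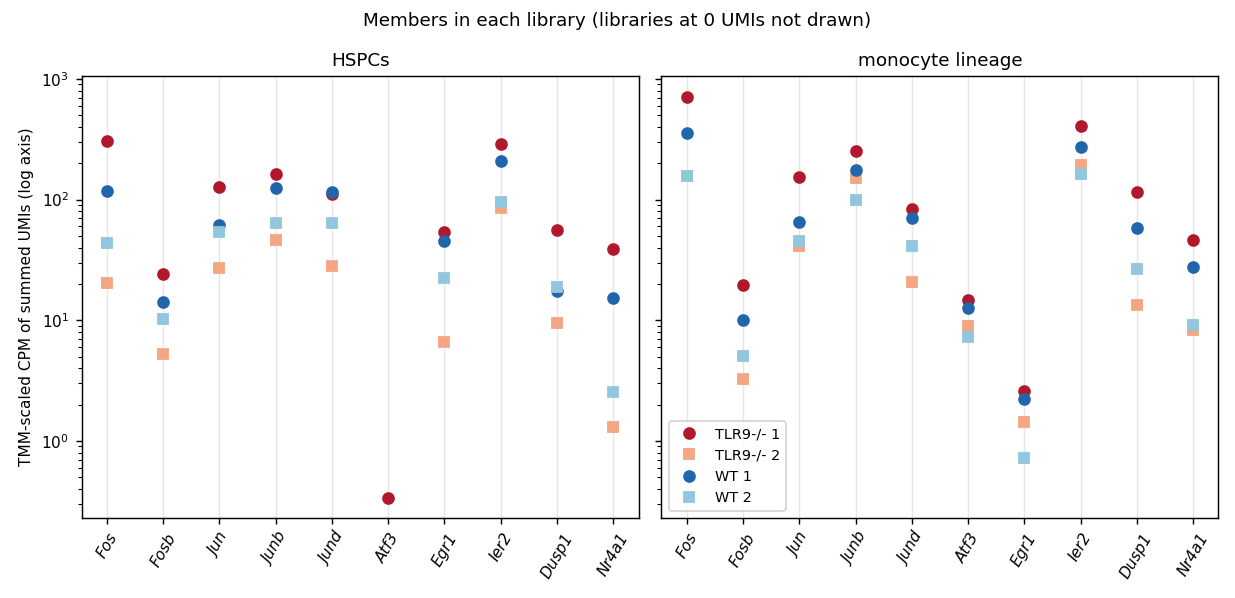
Level of each of the 10 members in HSPCs (left) and in the monocyte lineage (right), in TMM-scaled CPM on a log axis, with 1 point per library and libraries at 0 UMIs not drawn. TLR9-/- 1 (dark red circles) is the highest library for 8 of the 9 members tested in HSPCs and for 10 of 10 in the monocyte lineage.

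Of the 9 members tested between genotypes in HSPCs, 0 passed the threshold, against 0.463% of all 9497 genes. At an unadjusted p under 0.05 the count was also 0, beside 896 of all 9497 genes, and DESeq2's Wald test called 0. With a spread this wide between libraries of 1 genotype, a count of 0 does not show that the genotypes were alike. The log2 fold change was 1.05 ± 0.79 (SE, adjusted p = 0.708) for Fos, 1.32 ± 1.07 (SE, adjusted p = 0.737) for Nr4a1 and 0.83 ± 0.63 (SE, adjusted p = 0.712) for Dusp1. It was 0.43 ± 0.50 (SE, adjusted p = 0.834) for Jun, 0.17 ± 0.44 (SE, adjusted p = 0.926) for Junb and 0.32 ± 0.45 (SE, adjusted p = 0.865) for Ier2. Egr1 and Jund had values of the other sign, -0.12 ± 0.66 (SE, adjusted p = 0.970) and -0.35 ± 0.46 (SE, adjusted p = 0.857). The median over the 9 members was 0.32, beside -0.01 over all genes. The mean of the log2 genotype ratios within each library number gave less, with a median of -0.004 over the 8 members with enough UMIs. By that measure Fos was at 0.14 and Egr1 at -0.76. Leaving out 1 library changed both the calls and their direction. Without TLR9-/- 1, all 9 members were lower in TLR9-/-, and Fos was called at -1.92 (adjusted p = 1.74e-06), Egr1 at -2.30 (adjusted p = 7.43e-06) and Jund at -1.64 (adjusted p = 4.11e-05), so that 3 of 9 members were called and 0.912% of all genes. Without TLR9-/- 2, all 9 members were higher in TLR9-/-, and Fos was called at 1.95 (adjusted p = 2.41e-07), Nr4a1 at 2.27, Dusp1 at 1.61 and Jun at 1.15, which were 4 of 9 members beside 0.834% of all genes. Without WT 1, Fos was called at 1.91, Nr4a1 at 2.96 and Ier2 at 0.98 (3 members, beside 1.58% of all genes). Without WT 2 the value of Fos was 0.48 with 0 members and 1.11% of all genes called. In these fits the genotype left with 1 library is assumed to vary like the other. The members were chosen for a difference between libraries 1 and 2. Opposite signs without TLR9-/- 1 and without TLR9-/- 2 were thus likely beforehand. Calls of members without 1 library, here and in the other groups of cells, describe that spread and do not test genotype.

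**Figure D3:**
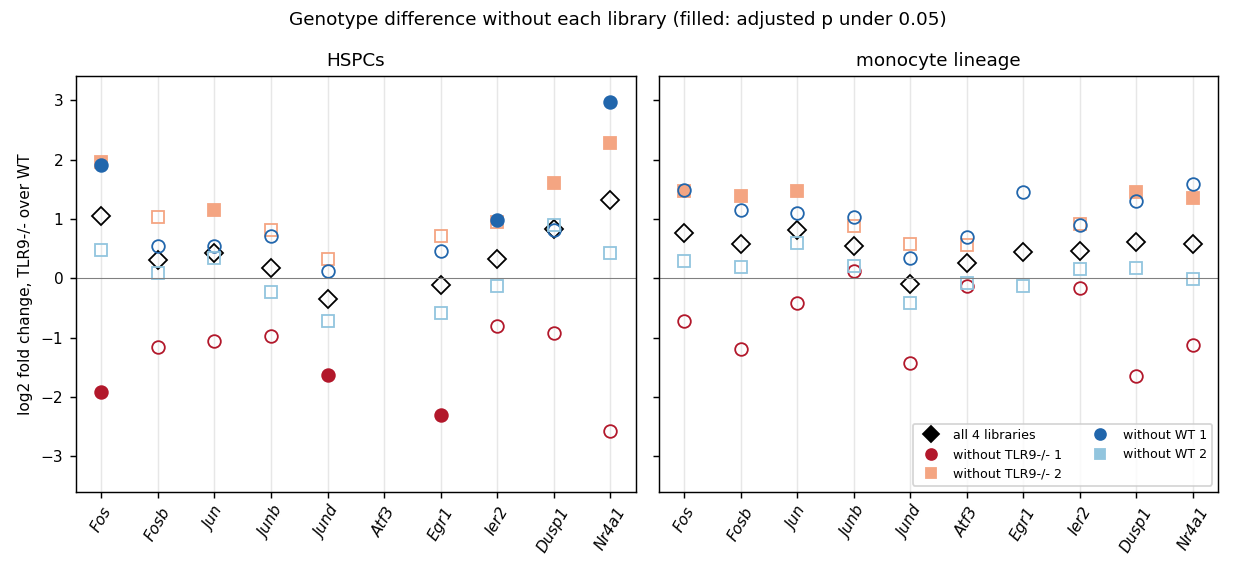
Log2 fold change of TLR9-/- over WT for each member in HSPCs (left) and in the monocyte lineage (right), with all 4 libraries (diamonds) and without each library in turn. Filled symbols passed an adjusted p of 0.05 over all genes. In HSPCs the fits without TLR9-/- 1 (dark red circles) lie below 0 and the fits without TLR9-/- 2 (light red squares) above 0 for all 9 members tested. The members were chosen for a difference between library numbers, which made these opposite signs likely.

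In the monocyte lineage, with 574 to 1316 cells per library, of which 544 to 1264 were classical monocytes, all 10 members had both libraries numbered 1 above both numbered 2. Fos was at 714 and 156 CPM in TLR9-/- 1 and 2 and 358 and 155 CPM in WT 1 and 2. Its levels in TLR9-/- 2 and WT 2 were thus almost equal, and those in TLR9-/- 1 and WT 1 differed by a log2 ratio of 1.00. Jun was at 153 and 41.2 CPM in TLR9-/- 1 and 2 and 65.3 and 45.6 CPM in WT 1 and 2, and Junb at 253 and 150.2 CPM in TLR9-/- 1 and 2 and 177 and 98.8 CPM in WT 1 and 2. Jund was at 83.0 and 20.6 CPM in TLR9-/- 1 and 2 and 70.1 and 40.9 CPM in WT 1 and 2 and Fosb at 19.5 and 3.26 CPM in TLR9-/- 1 and 2 and 9.96 and 5.07 CPM in WT 1 and 2, and in both TLR9-/- 2 was the lowest library. Atf3, which is known as a brake on inflammatory genes in myeloid cells, was detected mostly here, with 101, 69, 34 and 20 UMIs, or 14.6, 9.0, 12.5 and 7.24 CPM. Ier2 was at 408 and 193 CPM in TLR9-/- 1 and 2 and 273 and 162 CPM in WT 1 and 2. Dusp1 had the largest ratio of its highest to its lowest library, with 116 and 13.4 CPM in TLR9-/- 1 and 2 and 58.3 and 26.4 CPM in WT 1 and 2. Egr1 was scarce, with 18, 11, 6 and 2 UMIs. Nr4a1 was at 46.6 and 8.34 CPM in TLR9-/- 1 and 2 and 27.7 and 9.05 CPM in WT 1 and 2, again with the libraries numbered 1 on top.

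Between genotypes, 0 of the 10 members passed in the monocyte lineage, against 0.402% of 9951 genes. At an unadjusted p under 0.05 the count was 0, beside 658 of all 9951 genes, and with DESeq2 it was 0. With the library number as a replicate block, Junb was called, in a fit that also called more of all genes. Its counts and limits are given in the closing section. The log2 fold change was 0.81 ± 0.52 (SE, adjusted p = 0.805) for Jun, 0.76 ± 0.62 (SE, adjusted p = 0.852) for Fos, 0.61 ± 0.80 (SE, adjusted p = 0.915) for Dusp1 and 0.55 ± 0.31 (SE, adjusted p = 0.793) for Junb, with a median over the members of 0.56 beside -0.01 over all genes. Without TLR9-/- 2, 5 members were called higher, Fos at 1.48 (adjusted p = 2.61e-05), Jun at 1.47, Dusp1 at 1.46, Fosb at 1.38 and Nr4a1 at 1.35, where 1.24% of all genes were called. Without TLR9-/- 1, 8 of 9 members tested were lower in TLR9-/-, with 0 called among the members and 0.00% among all genes, and Fos was at -0.71. Nonclassical monocytes, whose leading genes included Nr4a1, were too few for a test with 40, 19, 60 and 20 cells. They had 65, 15, 42 and 8 Nr4a1 UMIs, or 1073, 425, 463 and 367 CPM without TMM scaling. Fos in the same cells had 34, 2, 27 and 1 UMIs, with both libraries numbered 1 on top.

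In the neutrophil lineage the order of the WT libraries was not the same for all members. Over the whole lineage Junb was at 412 and 88.8 CPM in TLR9-/- 1 and 2 and 98.9 and 125 CPM in WT 1 and 2, Egr1 at 51.9 and 5.27 CPM in TLR9-/- 1 and 2 and 7.82 and 10.3 CPM in WT 1 and 2 and Dusp1 at 225 and 57.7 CPM in TLR9-/- 1 and 2 and 64.2 and 88.0 CPM in WT 1 and 2, so that WT 2 was above WT 1 for these 3 genes. Mature neutrophils made up 623 of 1592 and 423 of 2019 cells of this lineage in TLR9-/- 1 and 2, and 111 of 876 and 491 of 1701 in WT 1 and 2, and WT 1 thus had the fewest. Within mature neutrophils Junb was at 3158 and 778 CPM in TLR9-/- 1 and 2 and 1290.1 and 1248 CPM in WT 1 and 2, and within immature neutrophils at 106 and 42.2 CPM in TLR9-/- 1 and 2 and 59.6 and 39.9 CPM in WT 1 and 2. Dusp1 was at 1647 and 619 CPM in TLR9-/- 1 and 2 and 959.6 and 837 CPM in WT 1 and 2 in mature and 67.2 and 19.8 CPM in TLR9-/- 1 and 2 and 34.7 and 31.1 CPM in WT 1 and 2 in immature neutrophils. Egr1 was at 407 and 65.1 CPM in TLR9-/- 1 and 2 and 139 and 117 CPM in WT 1 and 2 in mature neutrophils and, from 64, 11, 10 and 16 UMIs, at 12.4, 1.23, 3.50 and 2.17 CPM in immature ones. Within each stage, WT 1 was above WT 2 for all 3 genes. The depth of mature neutrophils was low, with a median of 719 to 1464 UMIs per cell and 91 Fos UMIs in all of WT 1.

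Of the 9 members tested in the neutrophil lineage, 0 passed between genotypes, against 0.393% of 9913 genes. Again 0 passed at an unadjusted p under 0.05, beside 714 of all 9913 genes, and 0 with DESeq2. With the library number as a replicate block, Ier2 was called, in a fit that also called more of all genes. Its counts and limits are given in the closing section. The largest fold changes were those of Egr1 at 1.57 ± 0.77 (SE, adjusted p = 0.754), Fos at 1.21 ± 0.64 (SE, adjusted p = 0.777) and Junb at 1.15 ± 0.52 (SE, adjusted p = 0.701), whereas Jund was at -0.49 ± 0.34 (SE, adjusted p = 0.866) and Fosb at -0.35 ± 0.57 (SE, adjusted p = 0.947). Fold changes were smaller within the stages, with 1.24 in immature and 0.93 in mature neutrophils for Egr1, 0.93 and 0.59 for Fos, 0.58 and 0.63 for Junb and 0.39 and 0.34 for Dusp1. The share of mature neutrophils, where these genes were far higher, was largest in TLR9-/- 1 and smallest in WT 1. It was larger in WT 2 than in TLR9-/- 2, so that the genotypes overlapped. The part of this share in the lineage values was not tested. The median over the lineage was 0.74 over the members and -0.00 over all genes. With no filter on low counts, 4 members were called, Egr1 at an adjusted p of 1.57e-06, Fos at 4.41e-05, Junb at 0.000107 and Dusp1 at 0.0162, and 1.43% of all genes were called. Without TLR9-/- 1, Jund was called lower at -1.26, and without TLR9-/- 2, Egr1 (2.46), Fos (2.02), Junb (1.86) and Dusp1 (1.54) were called higher. These were 1 of 9 and 4 of 10 members, beside 0.650% and 0.644% of all genes. Without WT 1 there were 2 calls, Fos at 1.41 and Egr1 at 1.43, with 1.50% of all genes called. Without WT 2 there were 3 calls, Egr1 at 1.82, Junb at 1.33 and Dusp1 at 1.13, with 1.26% of all genes called. Within mature neutrophils, Jund was below both WT libraries in both TLR9-/- libraries, with 398 and 217 CPM in TLR9-/- 1 and 2 and 512 and 517 CPM in WT 1 and 2 and a fold change of -0.74 ± 0.33 (SE, adjusted p = 0.9998). In that class both TLR9-/- libraries were below both WT libraries in 15.6% of 4062 genes.

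In the B lineage the median log2 ratio by library number, averaged over both genotypes, was 0.85 over the members, beside 0.94 in the neutrophil lineage and 1.39 in the monocyte lineage, while within WT alone it was higher here (0.56) than in the neutrophil lineage (0.30). Jund was higher here than in HSPCs or monocytes, with 536 and 242 CPM in TLR9-/- 1 and 2 and 561 and 383 CPM in WT 1 and 2. Junb was at 105 and 111 CPM in TLR9-/- 1 and 2 and 102 and 69.6 CPM in WT 1 and 2 and Jun at 120.1 and 56.7 CPM in TLR9-/- 1 and 2 and 91.5 and 59.2 CPM in WT 1 and 2, and for Junb both TLR9-/- libraries were above both WT libraries, as were those of 18.2% of 11137 genes. Fos was at 67.7 and 14.2 CPM in TLR9-/- 1 and 2 and 55.9 and 17.9 CPM in WT 1 and 2, with both libraries numbered 1 again on top. Egr1, known for its induction by the B-cell receptor, was at 11.6 and 8.91 CPM in TLR9-/- 1 and 2 and 12.3 and 12.3 CPM in WT 1 and 2, and here both TLR9-/- libraries were below both WT libraries, as in 16.7% of genes. Neither Egr1 nor Junb separated the genotypes within the classes of the lineage. In B-cell precursors Egr1 was at 5.33, 1.18, 2.53 and 3.62 CPM and Junb at 59.6, 47.7, 59.2 and 39.96 CPM in TLR9-/- 1, TLR9-/- 2, WT 1 and WT 2, and in immature and mature B cells they were at 34.7, 19.9, 41.3 and 34.3 CPM and 271, 200.5, 228 and 146 CPM. Both were higher in the immature and mature cells, and precursors were 2058 of 3183 and 811 of 2185 cells of the lineage in TLR9-/- 1 and 2 and 3222 of 5037 and 2310 of 4229 in WT 1 and 2. The part of these proportions in the lineage values was not tested. Nr4a1, which the same receptor induces, had 18, 30, 53 and 44 UMIs and was lowest in TLR9-/- 1, where the monocyte lineage had its highest level. Its levels were 2.42, 5.14, 5.93 and 4.03 CPM. Among the 9 members tested, 0 passed between genotypes, against 0.305% of all genes. The count was 0 at an unadjusted p under 0.05, beside 631 of all 11137 genes, and 0 with DESeq2. Fold changes ran from -0.42 ± 0.42 (SE, adjusted p = 0.944) for Nr4a1 to 0.33 ± 0.22 (SE, adjusted p = 0.919) for Junb. Without TLR9-/- 1, Fos was called lower in TLR9-/- at -1.37 (adjusted p = 0.0257), and without TLR9-/- 2 it was at 0.89 and not called. Of all genes, 2.78% and 0.894% were called in these fits.

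Each member had its own distribution over the classes. Junb, Ier2, Dusp1, Egr1 and Fos were highest in mature neutrophils by mean level, and Jun was highest in basophils with 549 and 119 CPM in TLR9-/- 1 and 2 and 359 and 253 CPM in WT 1 and 2. Fosb was highest in plasma cells and basophils, and in basophils it was at 143 and 19.7 CPM in TLR9-/- 1 and 2 and 86.4 and 58.0 CPM in WT 1 and 2. Jund was highest in immature and mature B cells, at 603 and 241 CPM in TLR9-/- 1 and 2 and 670.00 and 519 CPM in WT 1 and 2. Atf3 passed the filter on low counts in 1 of 14 classes, the classical monocytes, at 14.6 and 9.20 CPM in TLR9-/- 1 and 2 and 9.46 and 7.10 CPM in WT 1 and 2. In T cells, where AP-1 follows activation, Junb was at 469 and 234 CPM in TLR9-/- 1 and 2 and 342 and 139 CPM in WT 1 and 2 and Fos at 131 and 23.3 CPM in TLR9-/- 1 and 2 and 102 and 19.9 CPM in WT 1 and 2. Over the 14 classes and the members tested in each, there were 109 combinations, and 0 were called between genotypes by edgeR and 0 by DESeq2. At an unadjusted p under 0.05 there was 1, in mature neutrophils, where 176 of all 4062 genes were under it. Over all genes of the same classes, 0.313% were called. Summed over all cells, which mixes the classes in the proportions of each library, 0 of 10 members passed between genotypes, against 0.268% of 14194 genes. The count was 0 at an unadjusted p under 0.05, beside 2433 of all genes, and 0 with DESeq2. With the library number as a replicate block, Ier2 was called over all cells, in a fit that also called more of all genes. Its counts and limits are given in the closing section. Without the block, Fos over all cells was at 284 and 44.0 CPM in TLR9-/- 1 and 2 and 97.0 and 40.4 CPM in WT 1 and 2, with a log2 fold change of 1.26 ± 0.88 (SE, adjusted p = 0.506). Atf3 had 163, 105, 49 and 34 UMIs and was the one member with both TLR9-/- libraries above both WT libraries there, as were 24.8% of genes. Its fold change was 1.04 ± 0.49 (SE, adjusted p = 0.345).

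The difference between library numbers was then set beside genotype, gene by gene, as a description, since the members had been chosen for it. In HSPCs the log2 ratio of the library numbered 1 over the library numbered 2 was 3.89 within TLR9-/- and 1.43 within WT for Fos. For Jun it was 2.23 and 0.21, and for Egr1 3.04 and 1.04. Dusp1 had 2.55 within TLR9-/- and -0.10 within WT, and was the one member among the 8 with enough UMIs that was not higher in WT 1 than in WT 2. The ratio was larger within TLR9-/- than within WT for all 8. The median over these members was 2.22 within TLR9-/- and 0.90 within WT, beside -0.00 and 0.04 over all genes. The genotype ratio went opposite ways in the 2 numbers, with a median of 0.64 between the libraries numbered 1 and -0.98 between those numbered 2, and TLR9-/- 2 was below WT 2 for 8 of 8. In the monocyte lineage the medians over 9 members were 2.01 within TLR9-/- and 0.84 within WT by number, and 0.75 and -0.12 by genotype. In the neutrophil lineage they were 2.13 and 0.30 by number, and in the B lineage 0.86 and 0.56. The mean of both genotype ratios had a median of -0.004 in HSPCs and 0.32 in the monocyte lineage. It was 0.60 in the neutrophil lineage and -0.03 in the B lineage. Averaged over both genotypes, the difference by number was larger than the mean genotype difference for 8 of 8 members in HSPCs, 9 of 9 in the monocyte lineage, 9 of 9 in the neutrophil lineage and 6 of 9 in the B lineage. The choice of the members made this outcome likely. The counts of members in this paragraph were not made over all genes, so they describe the members and support nothing.

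**Figure D4:**
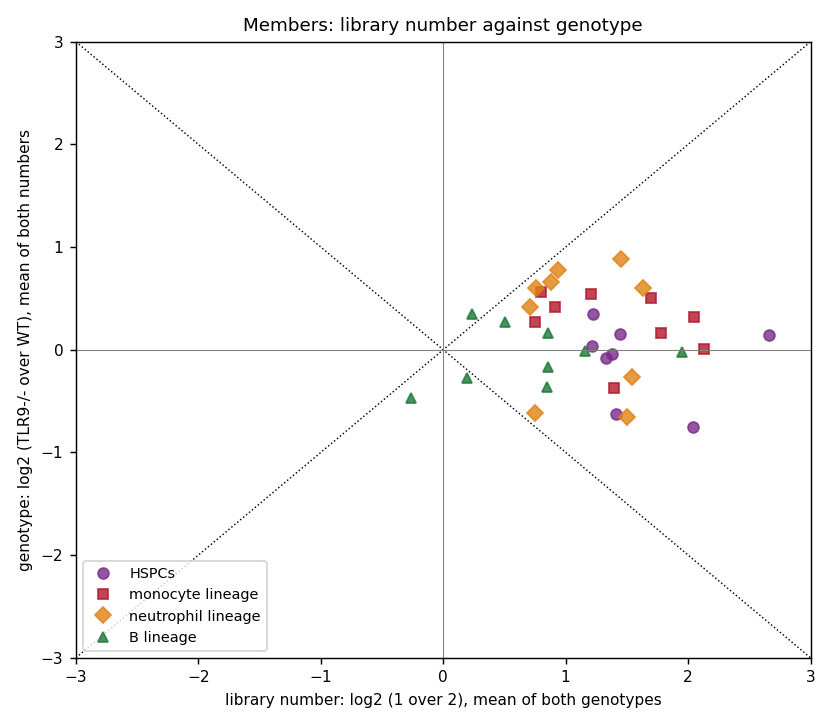
Each point is 1 member in 1 of 4 groups of cells, placed by its mean log2 ratio of the libraries numbered 1 over 2 (horizontal) and by its mean log2 ratio of TLR9-/- over WT (vertical), with dotted lines where both are of equal size. In HSPCs, the monocyte lineage and the neutrophil lineage every point lies to the right, outside the upper and lower sectors in which genotype is the larger difference. The members were chosen for the horizontal difference, which made this position likely.

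Since the members were chosen with this difference known, the following counts describe them and support nothing. Both libraries numbered 1 were above both numbered 2 for 8 of 9 members tested in HSPCs (all genes: 18.0%), 10 of 10 in the monocyte lineage (19.8%), 6 of 9 in the neutrophil lineage (21.0%), 6 of 9 in the B lineage (20.9%) and 9 of 10 over all cells (18.0%). TLR9-/- 1 was the highest library for 8 of 9 members in HSPCs and 10 of 10 in the monocyte lineage, where it was highest for 21.8% and 23.1% of all genes. In HSPCs, TLR9-/- 2 was the lowest library for 9 of 9 members, and for 21.6% of all genes. Over the 14 classes, the libraries numbered 1 were on top in 14 of 14 for Fos, Junb and Ier2, 11 of 11 for Fosb, 12 of 14 for Jun, 12 of 13 for Jund, 10 of 11 for Dusp1, 6 of 8 for Nr4a1, 5 of 9 for Egr1 and 1 of 1 for Atf3 (all genes: 19.5%). TLR9-/- 1 was the highest library in 89 of the 109 combinations, against 22.0% of all genes. Jund was the member whose highest library was most often WT 1, in 9 of 13 classes, and its lowest library was TLR9-/- 2 in 13 of 13, as for 23.3% of all genes. By single clusters, 32 of 34 had at least 4 Fos UMIs in every library, and in 32 of 32 the library numbered 1 was higher within TLR9-/- and also within WT. TLR9-/- 1 was above WT 1 in 31 of these 32 clusters and TLR9-/- 2 above WT 2 in 13. By cluster, the same was not counted over all genes. Over whole libraries, depth and mitochondrial reads also moved with the number within each genotype. The median depth was 2545 and 3618 UMIs per cell in TLR9-/- 1 and 2 and 1759 and 2287 in WT 1 and 2, so the libraries numbered 1 were shallower. The median mitochondrial share was 1.92% and 1.60% in TLR9-/- 1 and 2 and 2.32% and 2.17% in WT 1 and 2, so it was higher in those numbered 1. Both also separated the genotypes, as both TLR9-/- libraries were deeper and lower in mitochondrial share than both WT libraries. Depth separated them in HSPCs and the monocyte lineage too, but the genotypes overlapped in the neutrophil and B lineages. The order by number did not hold within every group of cells. Cells of the monocyte lineage, where all 10 members followed the number, had a median depth of 4247.5 and 4755.5 UMIs in TLR9-/- 1 and 2 and 3068 and 3840 in WT 1 and 2, but a mitochondrial share of 1.61 and 1.42% in TLR9-/- 1 and 2 and 1.61 and 1.67% in WT 1 and 2, lower in WT 1 than in WT 2. In immature neutrophils it was also lower in WT 1 (0.564%) than in WT 2 (0.619%), and the depth was higher in TLR9-/- 1 (3971 UMIs) than in TLR9-/- 2 (3875.5). The part of either in the members' differences was not tested. Whether the numbers stand for experiments, and whether handling, sequencing or the mice differed between them, cannot be told apart here.

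Counted cell by cell, the share of cells with Fos had the same order of libraries as its level in HSPCs and in the monocyte lineage. Cells were thinned to 1000 UMIs each, which left out 3, 2, 7 and 8 HSPCs and 42, 33, 55 and 39 monocyte lineage cells in TLR9-/- 1, TLR9-/- 2, WT 1 and WT 2. Far more mature neutrophils were left out, 448 of 623 and 89 of 423 in TLR9-/- 1 and 2 and 87 of 111 and 230 of 491 in WT 1 and 2, so their thinned shares are those of the deeper cells. A Fos UMI was then present in 25.6% and 1.97% of the cells in TLR9-/- 1 and 2 and 12.9% and 5.73% in WT 1 and 2 for HSPCs. Without thinning the shares were 63.2% and 14.4% of the cells in TLR9-/- 1 and 2 and 32.4% and 17.5% in WT 1 and 2, where the median depth was 5767.5, 8589, 4361 and 4771.5 UMIs. In the monocyte lineage the thinned shares of Fos were 45.4% and 16.9% of the cells in TLR9-/- 1 and 2 and 30.3% and 14.4% in WT 1 and 2, and 83.7% and 50.8% of the cells in TLR9-/- 1 and 2 and 62.9% and 44.4% in WT 1 and 2 without thinning. Erythroid cells, the class with the lowest Fos level, had 3.80% and 0.144% in TLR9-/- 1 and 2 and 1.53% and 0.515% in WT 1 and 2 at the same 1000 UMIs, from median depths of 2912, 9406.5, 2247 and 8018. The Fos shares of HSPCs and monocytes lay above the erythroid share of the same library. Comparing with the class of the lowest level made this order likely. Whether the erythroid share is background was not tested. The mean share of HSPCs with Fos was 13.8% ± 16.7 in TLR9-/- and 9.33% ± 5.09 in WT (SD, n = 2, two-sided exact permutation p = 1). In the monocyte lineage it was 31.1% ± 20.1 and 22.4% ± 11.3 (SD, n = 2, two-sided exact permutation p = 0.67), where 2 libraries against 2 cannot give a p below 0.33.

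**Figure D5:**
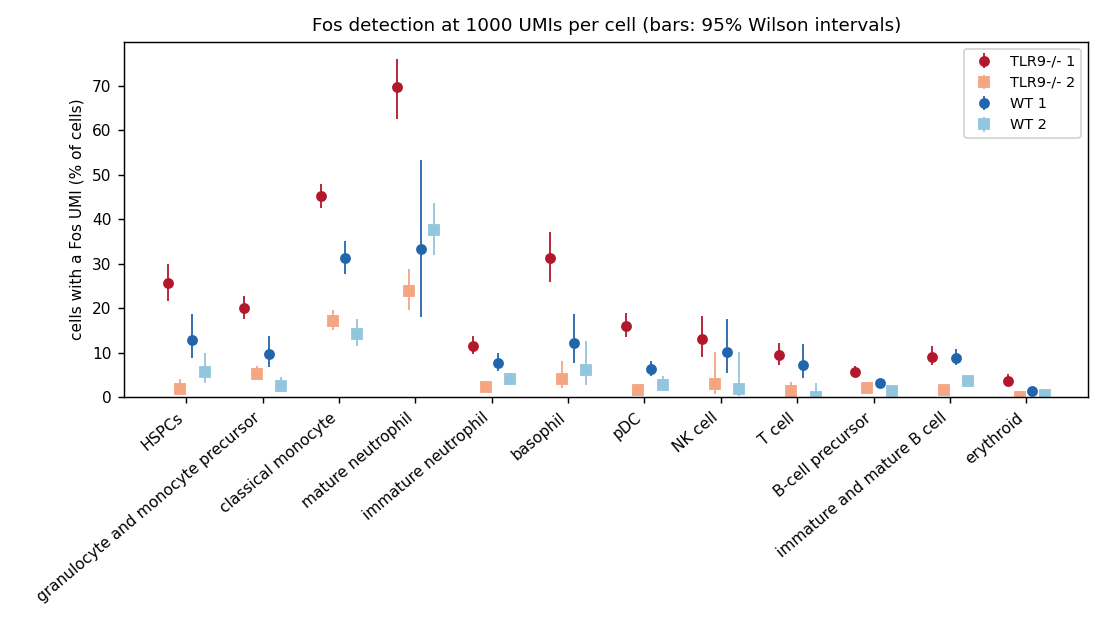
Share of cells with at least 1 Fos UMI after thinning every cell to 1000 UMIs, for 12 classes (horizontal) and 4 libraries, with 95% Wilson intervals that cover counting error only. TLR9-/- 1 (dark red) has the highest share in each of the 12 classes, from 3.80% in erythroid cells to 69.7% of the 175 mature neutrophils with at least 1000 UMIs, and in mature neutrophils WT 2 (37.5% of 261 cells) and WT 1 (33.3% of 24 cells) lie within WT 1's interval, in the order opposite to that of their levels.

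The 10% of monocyte lineage cells with the most Fos held 34.9%, 41.4%, 37.0% and 42.9% of its Fos UMIs in TLR9-/- 1, TLR9-/- 2, WT 1 and WT 2. The highest Fos count in 1 cell was 38, 8, 12 and 8 UMIs. Members were also counted together in each thinned cell. Of monocyte lineage cells, 17.3% and 2.41% had 3 or more members in TLR9-/- 1 and 2, and 7.66% and 2.06% in WT 1 and 2. Of HSPCs, 12.6% and 0.987% did in TLR9-/- and 7.30% and 1.56% in WT. Detection of a second member beside Fos was set beside what the separate shares give. In TLR9-/- 1, where counts were highest, 89 monocyte lineage cells had Fos and Jun against 76.7 from the product of the shares, and 163 had Fos and Junb against 146. Fos and Ier2 were found together in 212 cells against 198. Atf3 (10 against 12.7), Egr1 (1 against 2.72) and Nr4a1 (35 against 35.4) lay below the product there, and the remaining members above it. In WT 1 the counts were 18 against 13.9 for Jun, 38 against 36.4 for Junb and 43 against 47.6 for Ier2. The neutrophil lineage of TLR9-/- 1 had a larger excess, with 12 against 7.92 for Jun, 146 against 51.9 for Junb and 135 against 75.2 for Ier2. These are counts over cells of 1 mouse each and carry no test. The part of the mixed stages in the neutrophil counts was not tested.

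The rest of the pathway was read from lists written down with earlier results of these data known. Of 14 other AP-1 subunits and bZIP partners, 7 to 13 were tested in the 5 groups of cells and 0 passed between genotypes in either direction (edgeR, 0 to 3 at an unadjusted p under 0.05). Atf4, an effector of the integrated stress response, was nearly level in the monocyte lineage with 78.8 and 68.3 CPM in TLR9-/- 1 and 2 and 66.8 and 65.5 CPM in WT 1 and 2. Fosl2, a Fos paralog also known from osteoclasts, was at 67.8 and 65.6 CPM in TLR9-/- 1 and 2 and 64.5 and 53.2 CPM in WT 1 and 2 there, without the spread by number seen in Fos. Mafg, a small Maf protein, was at 66.0 and 71.3 CPM in TLR9-/- 1 and 2 and 72.3 and 88.3 CPM in WT 1 and 2. The median fold change of this list was -0.17 in HSPCs and -0.16 in the monocyte lineage, beside -0.01 and -0.01 over all genes. Its median log2 ratio by library number was -0.00 in the monocyte lineage, where that of the members was 1.39. The choice of the members made this gap likely. Of 19 upstream kinases and factors, 18 or 19 were tested and 0 passed (0 to 2 at an unadjusted p under 0.05), with median fold changes of 0.10 in HSPCs and -0.06 in the monocyte lineage. Map2k2, a kinase that activates MAP kinases, was at 122 and 128 CPM in TLR9-/- 1 and 2 and 104 and 99.9 CPM in WT 1 and 2 in HSPCs, and Rps6ka1, a ribosomal S6 kinase, at 63.8 and 69.1 CPM in TLR9-/- 1 and 2 and 59.7 and 61.5 CPM in WT 1 and 2. By number the kinases had a median of -0.04 in HSPCs.

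Of 32 other early response genes, 24 to 32 were tested in each group, and 1 gene passed in 1 group, Per1 in the monocyte lineage. At an unadjusted p under 0.05 the count was from 1 in the B lineage to 9 over all cells. Per1, a core gene of the circadian clock that glucocorticoids also induce, fell in TLR9-/- by 2.08 on the log2 scale (SE 0.30, adjusted p = 0.0298). Its levels were 8.53 and 4.56 CPM in TLR9-/- 1 and 2 and 26.2 and 29.0 CPM in WT 1 and 2, so that both TLR9-/- libraries lay below both WT libraries and the library number did not order them. Its sign was the same under every alternative run. The call was lost without TLR9-/- 1 (-2.59, adjusted p = 0.213), without WT 1 (-2.15, adjusted p = 0.197) and without WT 2 (-1.99, adjusted p = 0.126), and kept without TLR9-/- 2 (-1.69, adjusted p = 4.7e-05). In the other groups its log2 fold change was -1.21 over all cells, -1.21 in HSPCs, -1.61 in the neutrophil lineage and -0.33 in the B lineage, none of which passed. The list had a median fold change of -0.10 in HSPCs and -0.04 in the monocyte lineage, and a median ratio by number of 0.52 and 0.32. Its median fold change was -0.33 over all cells and 0.25 in the neutrophil lineage, beside -0.02 and -0.00 over all genes. Of 13 cytokine and activation genes that AP-1 can induce, 6 to 13 were tested and 0 passed (0 to 2 at an unadjusted p under 0.05). Ccl4, a chemokine that also served as a basophil marker, was at 126 and 13.2 CPM in TLR9-/- 1 and 2 and 98.3 and 44.4 CPM in WT 1 and 2 in HSPCs, in the same order as Fos. In the neutrophil lineage its order was another, with 20.9 and 2.63 CPM in TLR9-/- 1 and 2 and 2.04 and 0.50 CPM in WT 1 and 2. Its log2 fold change there was 3.51 (edgeR, adjusted p = 0.309). How many of all genes had both TLR9-/- libraries on top there was not counted. Il1b, a cytokine of mature neutrophils that also served as one of their markers, was at 185 and 29.1 CPM in TLR9-/- 1 and 2 and 19.4 and 62.9 CPM in WT 1 and 2 in the neutrophil lineage. Mmp9, a granule protease and also a marker, was at 522 and 925 CPM in TLR9-/- 1 and 2 and 514 and 603 CPM in WT 1 and 2, with the libraries numbered 2 on top. Of 13 heat-shock chaperones, 10 or 11 were tested and 0 passed (0 to 5 at an unadjusted p under 0.05). Their summed level in the monocyte lineage was 4383 and 4133 CPM in TLR9-/- 1 and 2 and 3217 and 3400.2 CPM in WT 1 and 2. Both TLR9-/- libraries thus lay above both WT libraries, and how many of all genes did so in this lineage was not counted. Hspa8, the constitutive member of the Hsp70 family, was at 1498 and 1480.1 CPM in TLR9-/- 1 and 2 and 1042 and 967 CPM in WT 1 and 2 there, with a log2 fold change of 0.57 (adjusted p = 0.400). Hsp90ab1 was at 1696 and 1709.8 CPM in TLR9-/- 1 and 2 and 1277 and 1476 CPM in WT 1 and 2. Hsp90aa1 was at 364 and 264 CPM in TLR9-/- 1 and 2 and 248 and 292 CPM in WT 1 and 2, so that the genotypes overlapped. The part of these lists in the members' differences was not tested.

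Which other genes followed the members was described over 56 points, the 14 classes in 4 libraries, with levels as log2(CPM + 10) centred within each class. These points share their 4 libraries, and the values carry no test. Of the members, Fos had a Pearson r of 0.93 with the mean of the other 9, Junb 0.92, Ier2 0.90 and Jun 0.85, while Egr1 had 0.58, Nr4a1 0.57 and Atf3 0.27. Among 5438 genes at a mean of at least 20 CPM, the 10 most alike non-members had r between 0.86 and 0.92. They were Polr2l, Ndufa3, Zfp36, Rpl39, Rpl9-ps6, Gm8186, Gm11808, Atp5k, Rps28 and Sec61g. Only Zfp36, which destabilizes short-lived mRNAs, was in one of the lists written down. Polr2l encodes a small subunit of RNA polymerase II, Ndufa3 and Atp5k small mitochondrial proteins, Rpl39 and Rps28 ribosomal proteins and Sec61g a subunit of the protein channel of the endoplasmic reticulum. Rpl9-ps6 is a pseudogene, whose reads may be split with its parent gene. The longest annotated transcript of the 10 genes ranged from 231 to 2790 bases, below the median of 3105 bases over all genes tested in all cells. Among the members it ranged from 1522 bases for Ier2 to 4484 for Egr1, with Fos at 2108.

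Averaged over both genotypes, transcript length moved with the library number over all genes. The members were chosen for a difference by number, so a larger median for them was likely beforehand. Genes were divided into 5 equal groups by the length or GC content of their longest transcript. In the group with the shortest transcripts in HSPCs the median log2 ratio by number was 0.12 and in the group with the longest -0.07, while the members' median was 1.40. In the monocyte lineage these values were 0.11, -0.06 and 1.39. The trend was mostly that of WT. In HSPCs the shortest and longest groups had 0.16 and -0.10 within WT, and 0.06 and -0.01 within TLR9-/-. The members' median there was larger within TLR9-/- (2.22) than within WT (0.90). Of the 8 members with a ratio in HSPCs, 3 lay in the shortest group and 0 in the longest. By GC content of the transcript, 6 of the 8 lay in the highest group, whose median ratio was -0.04, and the lowest group had 0.12. The part of length or GC content in the members' differences was not tested.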

How the data were processed

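The authors deposited 1 matrix of UMI counts per library, made with Cell Ranger and the mm10 genome per the labels and analysed by them with Seurat 2.3.4. No normalization had been applied to these counts. Of 40545 barcodes, 39167 were kept, with 200 to 10000 genes and at most 10% mitochondrial UMIs, which is how the limit printed in the study's methods was read. Doublets were kept, and Scrublet's procedure was an alternative. Cells were clustered with scanpy 1.11.5 (2000 variable genes, 30 components, Leiden resolution 1) in Python 3.11.15, and clusters were named from marker lists. The members and the genes of every other list except the upstream kinases and factors were kept out of the variable genes. The granulocyte and monocyte precursors shared markers of both lineages and were put in neither, a departure from the planned grouping. Groups with at least 20 cells in every library were tested. UMIs were summed per library and class and compared between genotypes, 2 libraries against 2, with edgeR 4.0.16 in R 4.3.3 (filterByExpr, TMM, quasi-likelihood test, Benjamini-Hochberg adjustment over all genes tested, threshold 0.05), a procedure tested on simulated counts. It recovered most changed genes where the libraries of a group varied little. It recovered none where they varied widely, though less than Fos did in HSPCs or the monocyte lineage. All genes varied alike in each simulation, so the outcome does not carry over to a few variable genes among steadier ones. DESeq2 1.42.0 was an alternative. The study's tests over single cells were not used, since cells of 1 mouse are not replicates. Ratios by library number needed at least 4 UMIs in every library. Shares of cells were compared by exact permutation with scipy 1.17.1. Libraries of 31210188 to 63958243 UMIs limit the precision for Atf3, Egr1 and Nr4a1 most. All 10 members were named, with the 3 most abundant genes of each other list and any that passed, except 1 gene that is not reported here. The members and lists were chosen with earlier results of these data known.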

Additional observations from a re-analysis of the deposited data

How the results depend on the processing

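The count of members called between genotypes stayed at 0 in all 5 groups with DESeq2 size factors, DESeq2's Wald test, a mitochondrial limit of 5%, without marked doublets and with cells of at least 2000 UMIs, and in the 4 groups other than all cells with the early response genes allowed in clustering, which was not run for all cells. With no filter on low counts it was 4 in the neutrophil lineage and 0 elsewhere. With the library number as a replicate block it was 1 over all cells (Ier2, 0.70), 1 in the monocyte lineage (Junb, 0.56) and 1 in the neutrophil lineage (Ier2, 0.66), and 0 in HSPCs and the B lineage. Of all genes, the block called 1165 of 14194 over all cells, 154 of 9951 in the monocyte lineage and 220 of 9913 in the neutrophil lineage. The block takes out the difference by number for which the members were chosen, so the choice bears on these calls. With 1 library of each genotype per number, it leaves little to estimate the spread from. Same-numbered libraries deviated together, with a correlation across genes of 0.41 over all cells, 0.30 in HSPCs, 0.26 in the monocyte lineage, 0.38 in the neutrophil lineage and 0.43 in the B lineage, but there are only 2 pairs and no label ties the numbers to a batch, so the libraries were not treated as pairs. Leaving out 1 library gave 0 to 4 members called in HSPCs, 0 to 5 in the monocyte lineage, 1 to 4 in the neutrophil lineage, 0 to 1 in the B lineage and 0 over all cells. The choice of the members made such calls likely, and the causes were not tested. Over all genes, in all cells, HSPCs, the monocyte, neutrophil and B lineages, 38, 44, 40, 39 and 34 genes were called as reported, 851, 35, 62, 49 and 56 with DESeq2, 605, 2, 41, 223 and 223 with no filter and 1165, 138, 154, 220 and 75 with the block. The differences by library number moved little under the alternatives run for them. Each move was smaller than the SD of the members' median ratios within TLR9-/- and within WT. That yardstick is wider where the genotypes differ more. The difference between genotypes in the share of HSPCs and of monocyte lineage cells with Fos kept its sign, although the shares themselves were higher at 2000 UMIs and without thinning. Its change in size was not set against a spread.

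Fold changes of single members also changed sign. With the replicate block these were Fosb in all cells (-0.18), Egr1 in all cells (-0.059) and Nr4a1 in the neutrophil lineage (-0.21). With early response genes allowed in clustering these were Jund in the monocyte lineage (0.015) and Egr1 in the monocyte lineage (-0.37). With cells of at least 2000 UMIs these were Nr4a1 in the neutrophil lineage (-0.020). Without 1 library in turn, the log2 fold change ranged as follows for members whose sign changed. Over all cells it was Jun from -0.73 to 1.14, Fosb from -1.45 to 0.97, Junb from -0.17 to 1.13, Fos from -0.62 to 2.05, Nr4a1 from -1.03 to 1.33, Dusp1 from -0.66 to 1.35 and Egr1 from -1.29 to 1.14. In HSPCs it was Jun from -1.06 to 1.15, Fosb from -1.16 to 1.03, Jund from -1.64 to 0.33, Ier2 from -0.81 to 0.98, Junb from -0.98 to 0.80, Fos from -1.92 to 1.95, Nr4a1 from -2.58 to 2.96, Dusp1 from -0.92 to 1.61 and Egr1 from -2.30 to 0.72. In the monocyte lineage it was Atf3 from -0.13 to 0.70, Jun from -0.43 to 1.47, Fosb from -1.19 to 1.38, Jund from -1.42 to 0.58, Ier2 from -0.17 to 0.91, Fos from -0.71 to 1.49, Nr4a1 from -1.13 to 1.59, Dusp1 from -1.65 to 1.46 and Egr1 from -0.13 to 1.45. In the neutrophil lineage it was Jun from -0.13 to 0.97, Fosb from -1.69 to 0.43, Jund from -1.26 to 0.0051, Junb from -0.35 to 1.86, Fos from -0.83 to 2.02, Nr4a1 from -1.37 to 0.91, Dusp1 from -0.42 to 1.54 and Egr1 from -0.82 to 2.46. In the B lineage it was Jun from -0.41 to 0.68, Fosb from -0.92 to 0.84, Jund from -0.97 to 0.18, Ier2 from -0.16 to 0.70, Fos from -1.37 to 1.21, Nr4a1 from -1.02 to 0.046 and Dusp1 from -0.65 to 0.33. Depth limits Atf3 outside monocytes, Egr1 in monocytes and Nr4a1 in HSPCs, each with under 5 UMIs in at least 1 library.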
